A study of Mus musculus with 6 samples.

Results

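The cluster of miR-212 and miR-132 was followed in 3 liver samples of mice on a normal diet (NC) and 3 of mice with metabolic dysfunction-associated fatty liver disease (MAFLD). Its members were taken by name, as both arms of both hairpins: mmu-miR-132-3p, mmu-miR-132-5p, mmu-miR-212-3p and mmu-miR-212-5p. All 4 were among the 1546 mature miRNAs of the deposited table. Per the study's methods, male C57BL/6 mice aged 8 weeks at the start were given a normal or a high-fat diet for 16 weeks, and were fasted before the livers were removed. No genetic change or drug was part of either group, and a high-fat diet alone is the model of the disease. Each library is labelled as 1 liver sample, so every value is an average over hepatocytes and all other liver cells. In such bulk RNA, fewer cells of a type and less miRNA per cell cannot be told apart.

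MiR-132 and miR-212 are cut from 1 primary transcript. Its transcription is known to be induced by CREB, the factor that cAMP signalling activates, in neurons stimulated by activity or neurotrophins, and in hepatocytes the same factor responds to fasting hormones. The 3p arm is usually taken as the guide strand of each hairpin, which pairs through its seed (bases 2 to 8) with target mRNAs. In liver, miR-132 has been described as promoting lipid synthesis and fibrosis, with the deacetylase gene Sirt1 among its described targets.

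The mature sequences are shown because the 3p arms share a seed, so that their reads add up to 1 pool of seed-matched miRNA. They are the RefSeq entries for GRCm38.p6, read 5′ to 3′, with the seed in capitals.
mmu-miR-132-3p: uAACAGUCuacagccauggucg
mmu-miR-212-3p: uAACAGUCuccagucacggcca
mmu-miR-132-5p: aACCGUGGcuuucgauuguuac
mmu-miR-212-5p: aCCUUGGCucuagacugcuuacu

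The 3p arms had the seed AACAGUC in common. Of the 1679 mature miRNA names in the RefSeq table, no others had it. Counted from the 5′ end, with the base of miR-132-3p first, they differed at 5 of 22 positions, A10C, C14U, U17C, U20C and G22A, all outside the seed. The 5p arms had different seeds, which were found in no other mature miRNA of that table. With an offset of at most 2 bases, no other listed miRNA came within 3 mismatches of any of the 4 sequences. The nearest was the sister arm in each case, with 5 mismatches between the 3p arms and at least 8 between the 5p arms.

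Both hairpins lie on the plus strand of chromosome 11. Mir212 (ENSMUSG00000065590.1) spans positions 75173388 to 75173478 and Mir132 (ENSMUSG00000065537.2) spans 75173682 to 75173747 in GRCm38, with 203 bases between them. GENCODE M21 places both in intron 1 (75172598 to 75173977) of the non-coding transcript 1700016P03Rik, on the same strand, and neither touches an annotated exon of it. The nearest protein-coding genes, Hic1 and Ovca2, are on the minus strand on either side.

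The libraries held 1336935 to 2549598 miRNA reads in NC livers and 1534569 to 4685712 in MAFLD livers. Values are in CPM, reads scaled to the same total of miRNA reads in every library, and the reads themselves were recovered from their steps. A level of 3 reads was chosen as the floor, which was 0.640 CPM in the deepest library and 2.24 CPM in the shallowest. Values under it are printed but rest on very few reads. MiR-148a-3p took 46.8% to 71.4% of the reads of a library, so the CPM of every other miRNA depended in part on it. The hepatocyte miRNA miR-122-5p was read at 42159 to 85150 CPM in the 6 livers. NC replicates 1 and 2 stood apart from the rest in the sum of brain miRNAs. Their 10 listed brain miRNAs summed to 584 and 1033 CPM, against 95.7 CPM in NC replicate 3 and 71.7 to 123 CPM in MAFLD livers.

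MiR-132-3p was the most abundant member in all 6 libraries. The NC livers gave 60, 40 and 27 reads of it, or 23.5, 25.5 and 20.2 CPM. The MAFLD livers gave 55, 85 and 27 reads, or 20.6, 18.1 and 17.6 CPM. The lowest NC liver lay under the highest MAFLD liver, so the groups overlapped. The means were 23.1 ± 2.68 CPM (SD, n = 3) and 18.8 ± 1.62 CPM (SD, n = 3). In CPM, the highest of the 6 livers exceeded the lowest 1.45-fold. The squared deviations of its reads, divided by what counting error alone gives, came to 0.992 over the 6 libraries, where 1 is counting error. Among the 107 miRNAs with a mean of 10 to 50 CPM, a range chosen after the values were seen, only 1 had a smaller SD of log2(CPM + 1) over the 6 libraries than miR-132-3p (0.20, against a median of 0.67). With libraries scaled by their median ratio over all miRNAs, miR-132-3p stood at 37.3, 32.9 and 16.2 in NC and at 13.5 to 18.9 in MAFLD livers. On that scale NC replicates 1 and 2 were above the other livers, the highest liver exceeded the lowest 2.76-fold, and the SD of 0.58 was in position 68 of the 107 from the smallest (median 0.45). Its mean of 20.9 CPM put it in position 177 of all listed miRNAs.

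MiR-132-5p, the passenger arm, was the second most abundant member in all 6 libraries. The NC livers gave 38, 28 and 11 reads, or 14.9, 17.8 and 8.23 CPM. The MAFLD livers gave 22, 49 and 16 reads, or 8.25, 10.5 and 10.4 CPM. NC replicates 1 and 2 were above all other livers, whereas NC replicate 3 was the lowest of the 6. The means were 13.7 ± 4.93 CPM (SD, n = 3) and 9.71 ± 1.26 CPM (SD, n = 3). Its spread over counting error was 2.47 within the NC group and 0.460 within the MAFLD group. The uneven livers were thus those of the NC group, each value resting on 3 libraries.

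MiR-212-3p, which carries the same seed as miR-132-3p, was scarce. The NC livers gave 2, 4 and 2 reads, or 0.784, 2.55 and 1.50 CPM. The MAFLD livers gave 13, 20 and 5 reads, or 4.88, 4.27 and 3.26 CPM. In CPM each of the MAFLD livers exceeded each of the NC livers, and NC replicates 1 and 3 were under the floor of 3 reads. With median-ratio scaling the groups overlapped, with 3.29 in NC replicate 2 above 2.50 in MAFLD replicate 3. The means were 1.61 ± 0.888 CPM (SD, n = 3) and 4.13 ± 0.818 CPM (SD, n = 3). The 95% Wilson intervals, which cover counting error only, overlapped for every pair of an NC and a MAFLD liver, as for NC replicate 1 (0.215 to 2.86 CPM) and MAFLD replicate 1 (2.85 to 8.35 CPM). With the reads of each group pooled, 8 in NC and 38 in MAFLD, the CPM was 2.92-fold higher in MAFLD libraries (exact 95% interval 1.34 to 7.24). This interval compares the pooled reads and holds no difference between livers.

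MiR-212-5p was the scarcest member. The NC livers gave 3, 5 and 2 reads, or 1.18, 3.19 and 1.50 CPM. The MAFLD livers gave 6, 7 and 2 reads, or 2.25, 1.49 and 1.30 CPM. The groups overlapped, and 3 of the 6 libraries were at or under 3 reads. The means were 1.95 ± 1.08 CPM (SD, n = 3) and 1.68 ± 0.501 CPM (SD, n = 3). No difference in either direction was detectable at this depth.

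**Figure D1:**
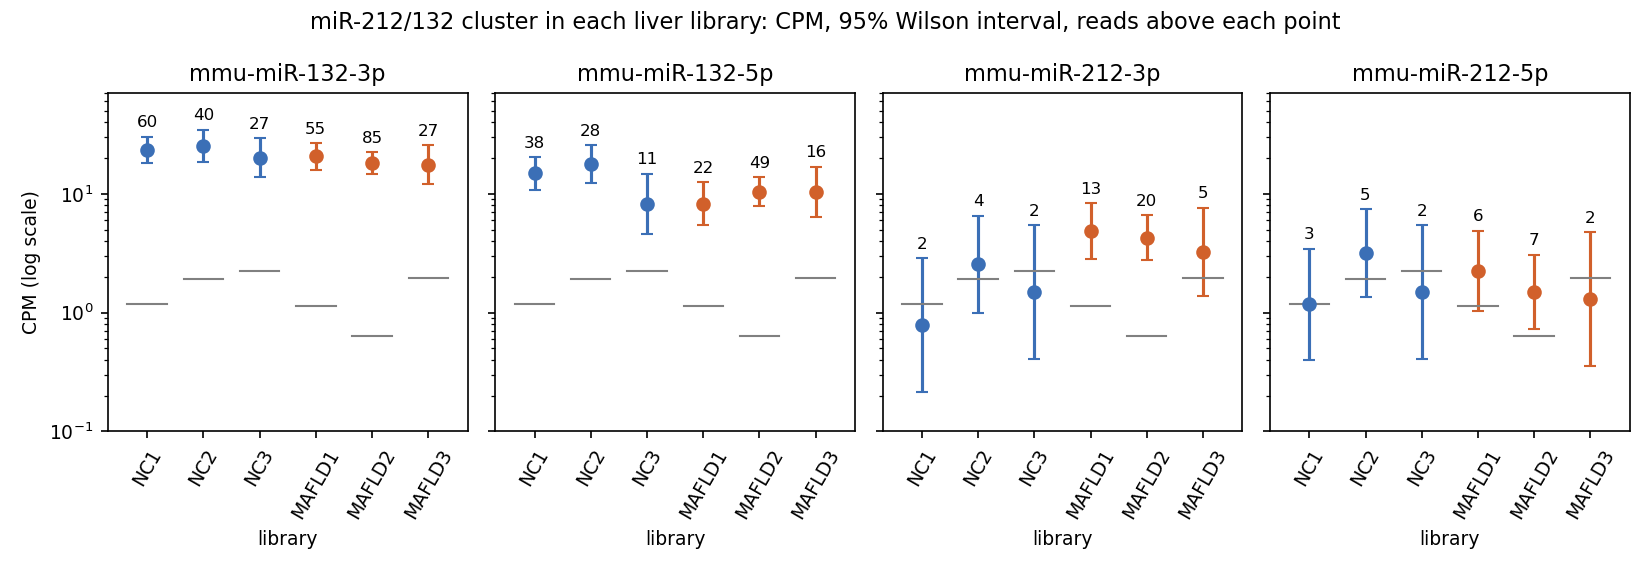
CPM of each member (log scale) in the 3 NC (blue) and 3 MAFLD (orange) libraries, with 95% Wilson intervals for counting error, the number of reads above each point and a grey bar at the level of 3 reads in that library. MiR-132-3p lies between 17.6 and 25.5 CPM in all 6, and miR-212-3p lies at 3.26 to 4.88 CPM in MAFLD and at 0.784 to 2.55 CPM in NC libraries.

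Whether the members differ between the diets was tested across the 501 miRNAs whose mean reached 1 CPM, all 4 members included. The test was limma on log2(CPM + 1), with Benjamini-Hochberg adjustment over the 501. None of the 4 members passed an adjusted p of 0.05 (0.2% of the 501 did), and none had an unadjusted p under 0.05 (18% did). With edgeR on the recovered reads the count of members was also 0 at both thresholds, where 0.2% and 17.4% of all 501 passed, and with DESeq2 it was 0 where 5.59% and 16.6% passed. Without NC replicate 3, limma called 22.8% of the 501 by adjusted p, and still none of the members. Over all 501 the median log2 fold change was 0.43, MAFLD against NC, and it moved to 0.044 when libraries were scaled by their median ratio.

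MiR-212-3p had a log2 difference of 1.02 (SE 0.55, 95% interval −0.16 to 2.20, unadjusted p = 0.0846 and adjusted p = 0.329 from limma). On the CPM scale it was the 1 member of 4 that was higher in every MAFLD liver than in every NC liver, which held for 15.2% of all tested miRNAs. With 3 livers a group, the exact permutation test (two-sided) cannot fall below its p of 0.1. Relative to the median of all miRNAs its log2 difference was 0.59. The added 1 CPM draws the fold of so scarce a miRNA towards 0, and with 0.1 CPM added it was 1.43. With edgeR and DESeq2 its log2 difference was 0.98 and 0.96.

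The log2 difference of miR-132-3p was −0.28 (SE 0.43, 95% interval −1.20 to 0.65, adjusted p = 0.754 from limma). On the linear scale of CPM + 1 the interval runs from 0.434-fold to 1.56-fold. For miR-132-5p the log2 difference was −0.40 (SE 0.49, 95% interval −1.43 to 0.64, adjusted p = 0.666 from limma), and for miR-212-5p it was −0.095 (SE 0.57, 95% interval −1.31 to 1.12, adjusted p = 0.946 from limma). These 3 lay under the median of all tested miRNAs by 0.71, 0.83 and 0.52 on the log2 scale. Exact permutation tests gave p = 0.2, 0.4 and 0.8 in the same order. With median-ratio scaling, the log2 differences were −0.73, −0.83 and −0.40, and that of miR-212-3p was 0.70. With DESeq2 those of miR-132-3p and miR-132-5p were −0.83 and −1.07.

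**Figure D2:**
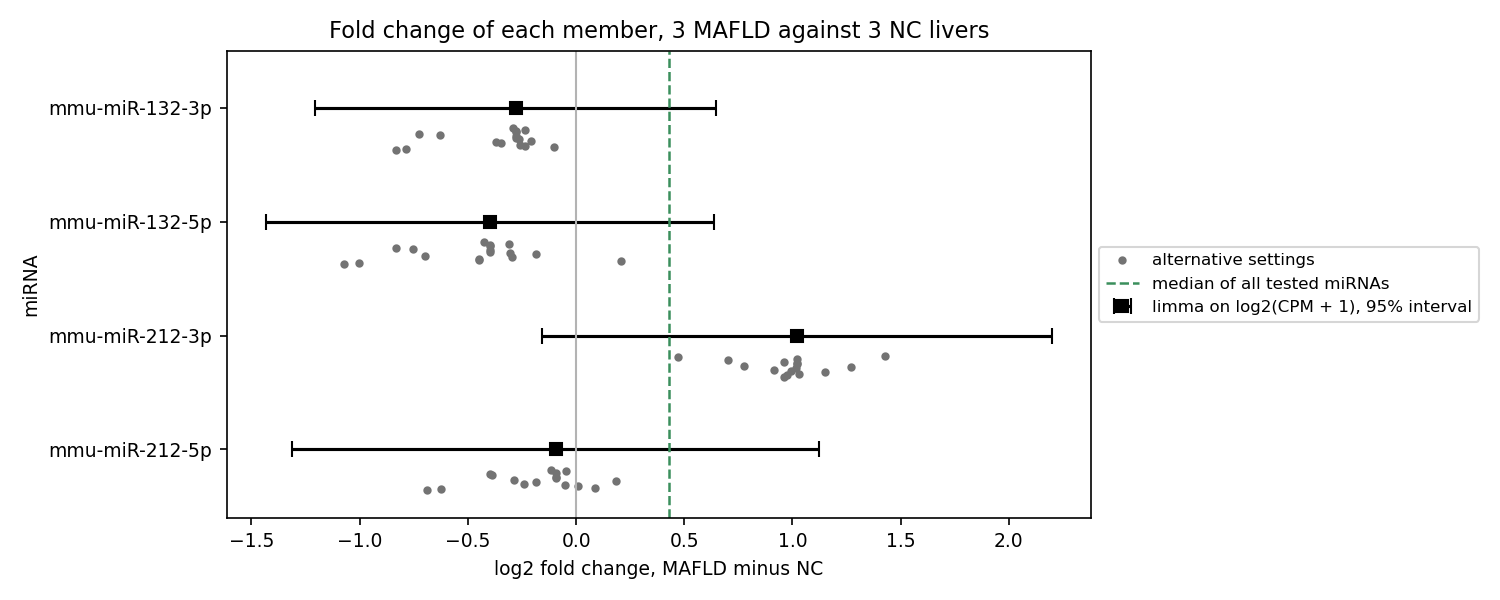
Log2 fold change (x axis, MAFLD minus NC) of each member (y axis). Black squares with bars are the limma estimate and its 95% interval from 3 livers a group, grey points are the alternative settings, and the dashed line is the median of all 501 miRNAs at 0.43. Every interval crosses 0, and miR-212-3p is above 0 in all 16 of its alternatives. Its CPM does not overlap between the groups, so leaving out libraries could not reverse its direction.

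Ratios within a library do not depend on how it was scaled, so the arms and hairpins were also compared with each other. In NC livers miR-212-3p made up 2 of 5, 4 of 9 and 2 of 4 reads of its hairpin, or 40%, 44.4% and 50%. In MAFLD livers it made up 13 of 19, 20 of 27 and 5 of 7, or 68.4%, 74.1% and 71.4%. The 3p arm was thus ahead of the 5p arm in 3 of 3 MAFLD livers and in 0 of 3 NC livers. The log2 ratio of the arms was higher by 1.47 in MAFLD livers (exact permutation test, two-sided, p = 0.1, and 0.15 adjusted over 3 ratios). With as few as 4 reads of the hairpin in a library, the Wilson intervals are wide, as in NC replicate 3 (15.0% to 85.0%).

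For miR-132 the 3p arm took 61.2%, 58.8% and 71.1% of the reads of the hairpin in NC livers and 71.4%, 63.4% and 62.8% in MAFLD livers. The groups overlapped, and the log2 ratio differed by 0.14 (exact permutation test, p = 0.5, adjusted p = 0.5). No difference in the use of its arms was detectable at this depth, with Wilson intervals such as 60.5% to 80.3% in MAFLD replicate 1.

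The hairpins were also unequal. MiR-132 gave 95.1%, 88.3% and 90.5% of the reads of the whole cluster in NC livers, and 80.2%, 83.2% and 86% in MAFLD livers. Every MAFLD liver had a smaller share of miR-132 than every NC liver. The log2 ratio of miR-132 to miR-212 fell by 1.10 (exact permutation test, p = 0.1, adjusted p = 0.15). Without NC replicate 1, where miR-212 had 5 reads, it fell by 0.70.

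In the pool that shares the seed AACAGUC, the share of miR-212-3p was compared after its values were seen. It uses the same miR-212-3p reads as the ratios of the miR-212 arms and of the hairpins, so they are not independent. The share was 3.23%, 9.09% and 6.90% in NC livers and 19.1%, 19.0% and 15.6% in MAFLD livers, which do not overlap. The mean share was 6.40% ± 2.96 (SD, n = 3) in NC and 17.9% ± 2.00 (SD, n = 3) in MAFLD livers (exact permutation test of the log2 ratio, p = 0.1, adjusted p = 0.133 over 4 ratios). The pool itself was 24.3, 28.0 and 21.7 CPM in NC livers and 25.5, 22.4 and 20.9 CPM in MAFLD livers. Its groups overlapped, with means of 24.7 ± 3.19 CPM (SD, n = 3) and 22.9 ± 2.37 CPM (SD, n = 3), and miR-132-3p was the larger part of it in every library (exact permutation test, p = 0.6).

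**Figure D3:**
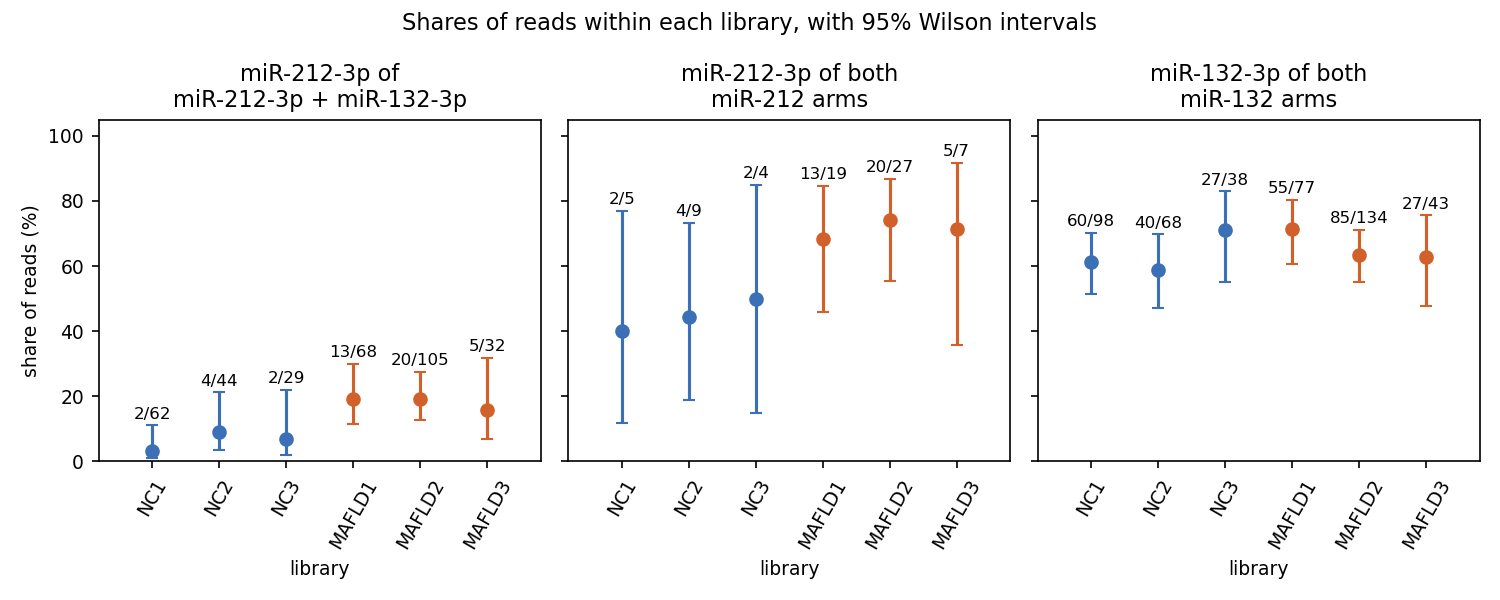
Share of reads (%) within each of the 3 NC (blue) and 3 MAFLD (orange) libraries, with 95% Wilson intervals and the reads behind each share. MiR-212-3p holds 3.23% to 9.09% of the seed pool in NC and 15.6% to 19.1% in MAFLD libraries, whereas the share of the 3p arm of miR-132 overlaps between the groups.

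The cluster is abundant in neurons, so its levels were set beside brain miRNAs. MiR-9-5p, a miRNA of neural tissue, stood at 344 CPM in NC replicate 1, at 530 CPM in NC replicate 2 and at 4.48 to 12.4 CPM elsewhere. The neuronal miR-124-3p was at 13.7 and 28.7 CPM in the same pair, at 0 in NC replicate 3 and MAFLD replicates 1 and 2, and at 0.652 CPM in MAFLD replicate 3. Not every miRNA of the list was highest in this pair. MiR-137-3p was at 2.35 and 7.01 CPM there and at 7.48 CPM in NC replicate 3. MiR-219a-5p was at 0.392 and 0 CPM there and at 1.50 CPM in MAFLD replicate 1. Of the 10 brain miRNAs, 8 were tested and 0 passed the adjusted p in limma or edgeR, while miR-9-5p, miR-128-3p and miR-218-5p were lower with DESeq2, as were 4.19% of all tested miRNAs. Without adjustment, limma had lower levels of miR-9-5p, miR-124-3p and miR-218-5p in MAFLD livers, as of 4.59% of all, and higher levels of none. Their median log2 fold change was −1.43, against 0.43 for all tested miRNAs.

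MiR-132-5p had its highest levels in the libraries with the most brain miRNA. With both of these libraries left out, its log2 difference turned from −0.40 to 0.21, against a median of −0.024 for all miRNAs, with the lone NC liver assumed to vary like the MAFLD livers. MiR-132-3p was also highest in this pair, in CPM and with median-ratio scaling, and its log2 difference was −0.10 without them. MiR-212-3p kept a log2 difference of 1.03 without them, but its NC side is then the 2 reads of NC replicate 3, under the level of 3 reads. The part of brain miRNA in the levels of both miR-132 arms was not tested.

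**Figure D4:**
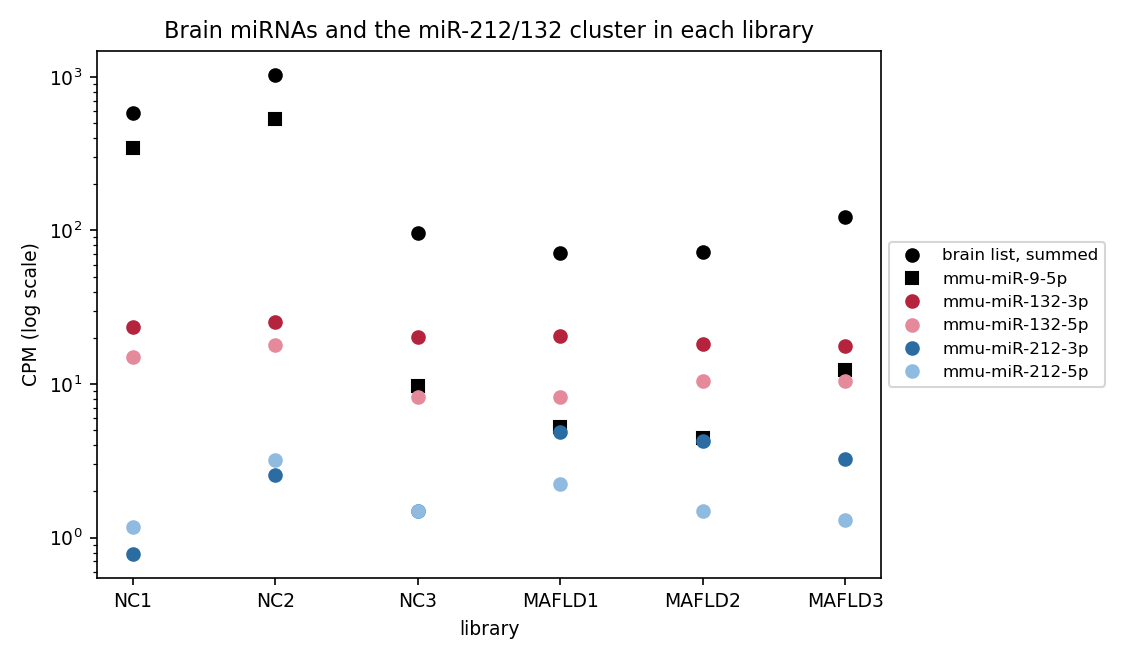
CPM (log scale) of the brain list, of miR-9-5p and of the 4 members in each library. The brain list is at 584 and 1033 CPM in NC1 and NC2 and at 71.7 to 123 CPM elsewhere. MiR-132-3p lies between 17.6 and 25.5 CPM and is also highest in NC1 and NC2. In NC3 the points of both miR-212 arms coincide at 1.50 CPM.

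The 5 miRNAs most like each member over the 6 libraries, by Pearson's r of log2(CPM + 1) and leaving out the members, differed between the arms. These correlations describe 6 points, share the library totals and carry no test. For miR-132-5p they were miR-138-5p (0.992), miR-204-5p (0.983), miR-9-3p (0.979), miR-124-3p (0.959) and miR-129-2-3p (0.958), of which 3 are on the brain list. All 5 were at most at 0.652 CPM outside NC replicates 1 and 2.

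For miR-132-3p the most alike were miR-370-3p (0.971), miR-382-3p (0.932), miR-376b-5p (0.894), miR-127-3p (0.893) and miR-12182-3p (0.888). All 5 were also highest in NC replicates 1 and 2, such as miR-127-3p at 269 and 445 CPM there and at 41.4 to 120.4 CPM elsewhere. For miR-212-3p they were let-7f-5p (0.941), miR-192-5p (0.905), miR-31-5p (0.901), let-7a-5p (0.898) and miR-802-3p (0.875), none of them a brain miRNA of the list. MiR-192-5p is a hepatocyte miRNA. For miR-212-5p they were miR-6945-3p (0.920), miR-714 (0.906), miR-5119 (0.862), miR-183-5p (0.816) and miR-130a-5p (0.797), but with 2 to 7 reads per library its pattern is mostly that of single reads.

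Among themselves the members were unevenly alike. Pearson's r over the 6 libraries was 0.72 between the arms of miR-132 and 0.37 between those of miR-212. Across the hairpins it was 0.56 between miR-132-3p and miR-212-5p, 0.33 between the 5p arms and −0.39 between miR-132-5p and miR-212-3p. It was −0.49 between the 3p arms that share the seed. By rank (Spearman's rho) the values were 0.54 for the arms of miR-132 and −0.37 for the 3p arms.

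Other miRNAs linked to liver fibrosis were looked at as a list of 16, all of which were tested. None passed the adjusted p in limma or edgeR, and 2 did with DESeq2, miR-34a-5p (higher, as were 1.4% of all tested miRNAs) and miR-21a-5p (lower). Unadjusted p-values under 0.05 in limma came to 6 with higher and 0 with lower levels in MAFLD livers, against 13.4% and 4.59% of all tested miRNAs. Of the 6, miR-199a-3p, miR-214-3p and miR-155-5p are also on the mesenchymal or leukocyte list below, so the lists are not independent. The median log2 fold change of the 16 was 0.84, against 0.43 for all tested miRNAs. The median was 0.81 for 5 stellate and mesenchymal miRNAs, 0.85 for 2 endothelial, 0.65 for 6 leukocyte, 0.43 for 5 hepatocyte and −0.29 for 4 red blood cell miRNAs. In limma, edgeR and DESeq2 alike, none of the miRNAs on these lists was past an adjusted p of 0.05. Without adjustment, limma had higher levels of the mesenchymal miR-199a-3p and miR-214-3p, the endothelial miR-126a-3p and miR-126a-5p, the leukocyte miR-155-5p and the hepatocyte miR-122-3p in MAFLD livers, and lower levels of none. For miR-199a-3p, miR-214-3p, miR-29a-3p, miR-155-5p and miR-126a-5p in CPM, NC replicates 1 and 2 were lowest and NC replicate 3 lay within the MAFLD range. MiR-29a-3p, for example, was at 682, 786 and 1658 CPM in NC and at 1378 to 2394 CPM in MAFLD livers. Also in CPM, miR-34a-5p, miR-19b-3p, miR-126a-3p and miR-122-3p were lower in every NC liver than in every MAFLD liver. This held for 15.2% of all tested miRNAs. The median-ratio factors ran from 0.631 in NC replicate 1 to 1.30 in MAFLD replicate 3, so the order of livers can differ on that scale. How far the levels on these lists rest on NC replicates 1 and 2 was not tested.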

How the data were processed

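Small RNA libraries from 3 NC and 3 MAFLD mouse livers were analysed. The authors deposited CPM values, that is, reads per mature miRNA scaled to a common total over all 1546 listed miRNAs of a library. The submitters' processing notes name GRCm38, FastQC, cutadapt, Bowtie and edgeR, and settings are not given in the sources used here. All values above 0 (100%) were whole multiples, within 0.02, of the smallest value in the same library, which gives back the reads. The labels also describe HepG2 cell culture, but name each sample as liver tissue.

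Groups were compared in limma 3.58.1 (R 4.3.3, eBayes with trend) on log2(CPM + 1). The labels number the libraries but do not say that each is a separate mouse, so p-values measure the spread between these samples. Ratios used reads with 0.5 added and exact permutation tests. Alternatives were edgeR 4.0.16 (quasi-likelihood, TMM) and DESeq2 1.42.0 on recovered reads, pseudocounts of 0.1 and 5, filters, scalings, a replicate block and libraries left out. The methods were tested on simulated data. Named miRNAs are the members, the 5 miRNAs most correlated with each, seed-sharing miRNAs, and miR-9-5p, miR-124-3p and miR-122-5p from fixed lists. Other listed miRNAs are named where a test called them or their unadjusted p was under 0.05. MiR-137-3p and miR-219a-5p are named as exceptions in the brain list, and miR-148a-3p for its share of reads. All of these were chosen after their values were seen. Members and lists were chosen with earlier results of these data known.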

Additional observations from a re-analysis of the deposited data

How the results depend on the processing

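None of the 4 members passed the adjusted p in any alternative that tested it, while the count over all tested miRNAs ran from 0 to 114 (without NC replicate 3) against 1 in the reported fit. The log2 fold change of miR-132-3p stayed below 0 in 17 of 17 alternatives (−0.83 to −0.10, adjusted p 0.290 to 0.999), and that of miR-212-3p above 0 in 16 of 16 (0.47 to 1.43, adjusted p 0.221 to 0.808). The CPM of miR-212-3p did not overlap between the groups, so leaving out libraries or changing the pseudocount could not reverse its direction. Without the trend in limma, miR-212-3p had an unadjusted p under 0.05, as 1 of the 74 of all 501 tested miRNAs that did. In that fit 0 of the 501 passed the adjusted p. MiR-132-5p was below 0 in 16 of 17 and reversed to 0.21 with NC replicates 1 and 2 left out. With single libraries left out it ran from −0.70 to −0.18. MiR-212-5p was below 0 in 13 of 16 and reversed to 0.088 with the same pair left out, and lay between −0.28 and 0.19 with single libraries left out, above 0 without NC replicate 2 or MAFLD replicate 3. The arm ratio of miR-132 lay between −0.043 and 0.36 with single libraries left out, reversed without NC replicate 2 or MAFLD replicate 1. The other ratios kept their direction in all alternatives, but their groups did not overlap, so leaving out single libraries could not reverse them. The ratio of miR-132 to miR-212 lay between −1.36 and −0.70 with single libraries left out, the latter without NC replicate 1. With 10 CPM as the filter, neither arm of miR-212 was tested. With the replicate block, miR-212-3p had the same log2 fold change of 1.02 and an adjusted p of 0.330. The labels do not say that a number marks the same animal, litter or day. The deviations of same-numbered livers correlated at −0.046 to 0.012, within the −0.163 to 0.129 of differently numbered livers. Whether same-numbered livers share a litter, batch or day is not known, and the reported fit used no pairing. Counting error limits both miR-212 arms, with 46 and 25 reads over all libraries.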
